A study of Bos taurus with 8 samples.

Results

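The genes described here are 9 genes of red cell formation and haem metabolism, measured in blood mononuclear cells of cows: HBB, AHSP, ALAS2, FECH, BLVRB, GATA1, KLF1, SLC4A1 and CA2. They were chosen by name, and every probe whose accession belongs to one of them was taken. They are 9 of the 12769 genes that a probe could be matched to, and they have 14 of the 43618 probes analysed, with 1 probe each for 5 genes, 2 probes each for AHSP, FECH and BLVRB, and 3 for SLC4A1. Peripheral blood mononuclear cells are the density fraction of blood that holds lymphocytes and monocytes. The study compared lame crossbred cows, normal crossbred cows and normal cows of Tharparkar, a zebu cattle breed, to find genes that differ with lameness and breed. Cy3-labelled total RNA was measured on 8 single-colour bovine arrays, 4 of the lame group and 2 of each normal group. No treatment, time point, age or cause of lameness is given in the sources used here.

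The protocol says that RNA samples were run as technical duplicates, and the titles pair the lame arrays as R1_1 with R1_2 and R2_1 with R2_2. The 8 arrays were therefore read as 4 RNA samples, each on 2 arrays: lame R1 and lame R2, 1 of normal crossbred cows and 1 of normal Tharparkar cows. Over the tested probes, arrays of the same RNA sample correlated at 0.980 to 0.996, lame R1 with lame R2 at 0.946 to 0.967, and those from separate groups at 0.927 to 0.966. Each normal group is then 1 RNA sample, and the sources used here do not say how many cows gave each one. P-values below measure the spread of arrays about their group mean, pooled over the groups. In the lame group this spread includes the gap between lame R1 and lame R2, and in each normal group only the gap between duplicates. P-values thus hold no spread between RNA samples of a normal group, and they overstate the evidence that cows of 2 groups differ. The arrays lay on 2 slides, and each slide held 1 array of every RNA sample.

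Red cell precursors in the bone marrow fill themselves with haemoglobin, a tetramer of alpha-like and beta-like globin chains that each carry a haem group. ALAS2 starts haem synthesis in these cells and FECH ends it by putting iron into the ring, while the transcription factors GATA1 and KLF1 switch on the globin, haem and membrane genes. Mature red cells of cattle have no nucleus and young ones keep some RNA for a time, and a mononuclear fraction is meant to leave red cells behind.

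Levels are on the log2 scale, taken from the processed signal and set against the 75th percentile of the same array, so 0 is the level of a probe at that percentile and 1 unit is a 2-fold step. A probe counted as measured on an array only where the scanner software marked it as well above background, and it was tested where this held on every array of at least 1 group. The share of all probes well above background was 52.8 to 61.5% on 7 arrays and 70.9% on lame R2_2, whose median raw signal of 192.5 and negative-control signal of 107 were also the highest. All 5 pan-leukocyte genes listed, all 13 T cell genes, all 5 B cell genes and all 14 monocyte genes with a probe passed the filter, as did 17 of 18 neutrophil genes. In bulk RNA, fewer cells of a type and less RNA per cell cannot be told apart.

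Of the 14 member probes, 9 probes of 7 genes passed the filter and 7 probes were well above background on all 8 arrays. The 3 SLC4A1 probes and the 2 FECH probes did not pass. Between lame and normal crossbred arrays, 2 of the 9 probes rose, KLF1 and 1 BLVRB probe, beside 3.21% of all 24659 tested probes that rose and 4.17% that fell (limma, adjusted p under 0.05). Between lame and Tharparkar arrays 3 rose, ALAS2, HBB and GATA1, beside 11.7% of all probes that rose and 9.86% that fell. Between normal crossbred and Tharparkar arrays GATA1 was higher and KLF1 lower, beside 9.68% and 8.01% of all probes. With so few members these counts are a description. The members did not move as 1 block: 3 patterns over the RNA samples are described below, one of HBB and ALAS2, one of KLF1 and BLVRB and one of GATA1.

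Markers of other blood cells moved between the groups as well. Of the 17 tested neutrophil genes, 0 rose and 7 fell in lame against normal crossbred, beside 2.54% of the 8927 genes tested that rose and 5.43% that fell. In lame against Tharparkar 0 rose and 10 fell, beside 9.68% and 11.6% of all genes, and the neutrophil medians were -1.69 and -1.92. Of the 10, CATHL1 and CATHL3 were well above background on 0 lame arrays. They entered the test only through the Tharparkar arrays, where they were high, and give no support. CXCR2 and LTF, also among the 10, were well above background on 6 and 7 of the 8 arrays. Both entered the test only through the normal arrays, where they were high, and give no support. CXCR2 is also among the 7 that fell in lame against normal crossbred. CXCR1, a chemokine receptor of neutrophils, was well above background on all 8 arrays. It fell by 3.82 in lame against normal crossbred (SE 0.61, limma, adjusted p = 0.0147) and by 4.78 in lame against Tharparkar (SE 0.61, adjusted p = 0.00297). In normal crossbred against Tharparkar 9 of 13 T cell genes and 5 of 10 NK cell genes were higher, with 1 and 0 lower, beside 9.3% and 6.7% of all genes. KLRD1, 1 of those 5, was well above background on 0 Tharparkar arrays. It entered the test only through the normal crossbred arrays, where it was high, and gives no support. The changes in these markers of other cells stand beside every group difference below, those of HBB, ALAS2, GATA1 and NFE2 included. Their part in those differences was not tested.

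**Figure D1:**
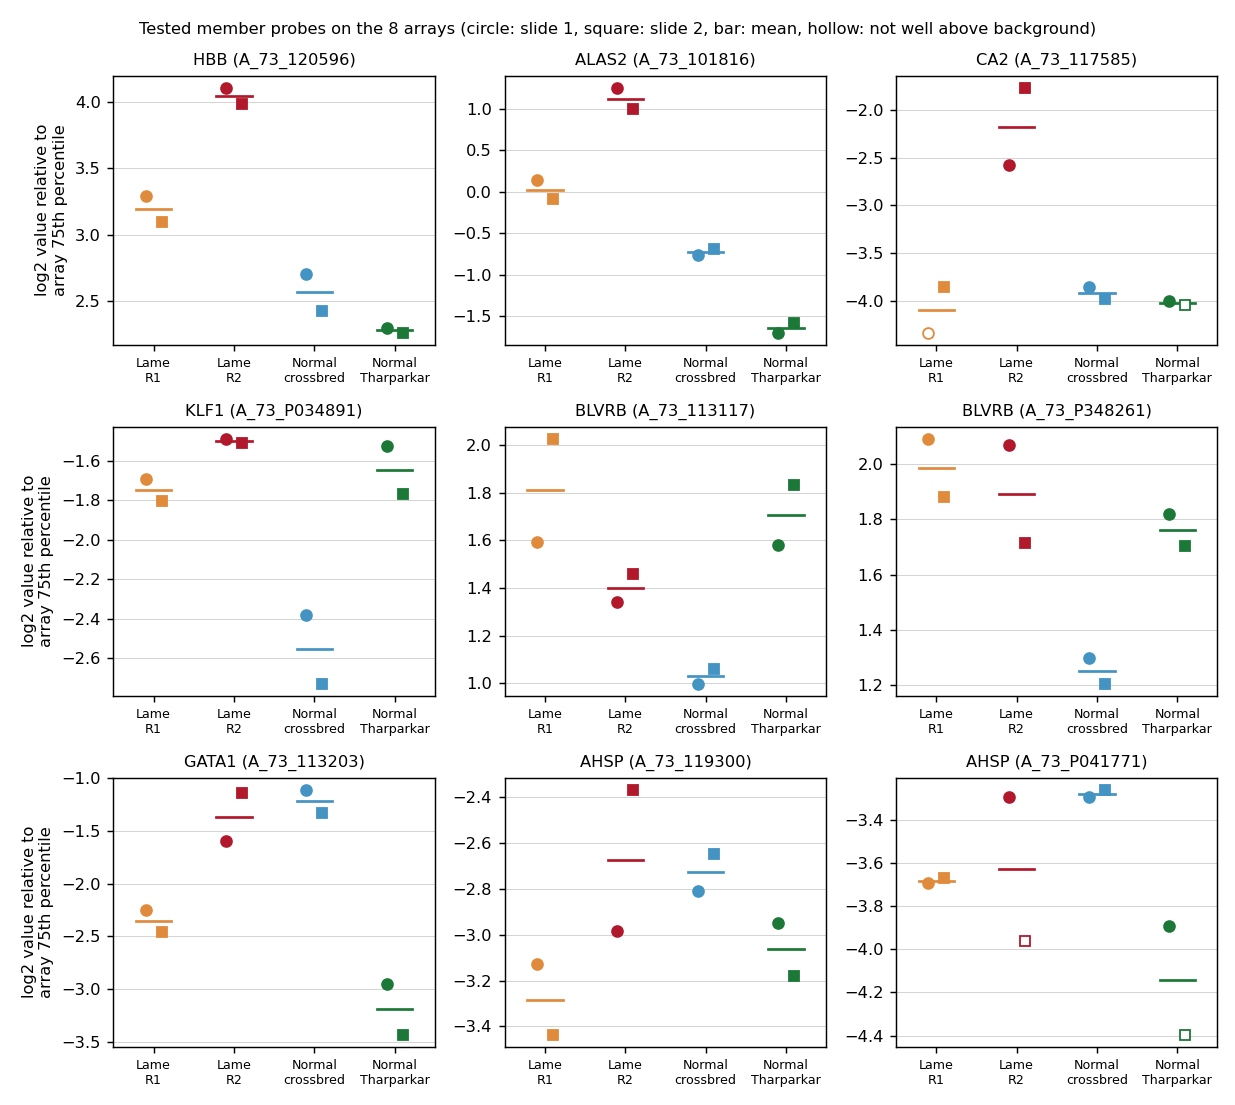
Level of each tested member probe on the 8 arrays, in log2 units relative to that array's 75th percentile, with 1 point per array grouped by RNA sample. Lame R2 sits above lame R1, and lame R1 above both normal groups, for HBB and ALAS2, whereas the normal crossbred arrays are lowest for KLF1 and BLVRB and the Tharparkar arrays are lowest for GATA1.

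HBB, the adult beta globin chain, was highest in lame R2 and lowest in Tharparkar. Its probe read 3.29 and 3.09 on the lame R1 arrays and 4.10 and 3.98 on the lame R2 arrays. It read 2.70 and 2.43 on the normal crossbred arrays and 2.30 and 2.26 on the Tharparkar arrays. The 4 RNA samples did not overlap, and all 4 lame arrays lay above all 4 normal arrays. The lame mean of 3.62 ± 0.50 (SD, n = 4 arrays) was 2.53-fold above the Tharparkar mean of 2.28 ± 0.02 (n = 2), a log2 difference of 1.34 with SE 0.31 that passed the test (limma, adjusted p = 0.0228). Against the normal crossbred mean of 2.56 ± 0.19 (n = 2) the lame group was 2.07-fold higher, with a log2 difference of 1.05 and SE 0.31, which did not pass (adjusted p = 0.0914). Normal crossbred and Tharparkar differed by 0.29 with SE 0.36 (adjusted p = 0.63). Within slide 1 the lame minus Tharparkar difference was 1.40 and within slide 2 it was 1.27. The call was kept under 15 of 21 alternatives. It was lost without Tharparkar R1 (adjusted p = 0.142), without Tharparkar R2 (0.143), with the RNA sample as a random block (0.244), with duplicates averaged (0.6), without the filter on dim probes (0.0876) and with quantile normalization (0.0547).

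AHSP, the chaperone that holds free alpha globin until it pairs with beta globin, did not follow HBB. Its first probe, A_73_119300, read -3.13 and -3.44 in lame R1, -2.98 and -2.37 in lame R2, -2.81 and -2.65 in normal crossbred and -2.95 and -3.18 in Tharparkar. Its other probe, A_73_P041771, read -3.70 and -3.67 in lame R1, -3.29 and -3.96 in lame R2, -3.30 and -3.26 in normal crossbred and -3.89 and -4.39 in Tharparkar, and was not well above background on lame R2_2 and Tharparkar R2. On the first probe the range of the lame arrays covered both normal groups. No comparison passed on either probe, with log2 differences of -0.25 and -0.37 for lame minus normal crossbred (adjusted p = 0.638 and 0.358), and 0.34 and 0.86 for normal crossbred minus Tharparkar (adjusted p = 0.526 and 0.0619). The second probe passed the filter only through the normal crossbred arrays, where it was highest.

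The other globins of the list fixed for this pathway were thinly covered: 6 of 11 had a probe and 3 of those were tested. HBA, an alpha globin gene, read 1.36 and 1.21 in lame R1, 0.65 and 0.55 in lame R2, 0.12 and 0.12 in normal crossbred and 0.63 and 0.30 in Tharparkar. It thus went the other way from HBB between the lame RNA samples, 0.68 lower in lame R2 than in lame R1, and none of its group differences passed (lame minus normal crossbred 0.82, adjusted p = 0.113). HBE1, an embryonic beta-like globin, was well above background on all 4 lame arrays and on none of the 4 normal arrays. Its lame level of -3.22 was at least 2.12-fold above Tharparkar. It entered the test only through the lame arrays, where it was high, so its adjusted p of 0.0208 gives no support, and with normexp background correction the fitted difference was -0.25 (adjusted p = 0.58). HBQ1, a theta globin gene, differed by -0.25 between lame and normal crossbred (adjusted p = 0.753). HBM and HBE2 were well above background on 0 arrays.

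ALAS2, the erythroid form of the rate-limiting enzyme of haem synthesis, had the HBB order with wider steps. It read 0.14 and -0.09 in lame R1 and 1.25 and 1.00 in lame R2. In normal crossbred it read -0.76 and -0.68, and in Tharparkar -1.69 and -1.58. Again the 4 RNA samples did not overlap and the 4 lame arrays stood above the 4 normal arrays. HBB and ALAS2 were the 2 of 9 tested probes with that separation, which 7.98% of all tested probes also had. The lame mean of 0.57 ± 0.65 (SD, n = 4 arrays) was 4.62-fold above the Tharparkar mean of -1.64 ± 0.08 (n = 2), a log2 difference of 2.21 with SE 0.38 (limma, adjusted p = 0.00843). It was 2.45-fold above the normal crossbred mean of -0.72 ± 0.05 (n = 2), a difference of 1.29 with SE 0.38 that did not pass (adjusted p = 0.0919). Normal crossbred was 0.92 above Tharparkar with SE 0.44 (adjusted p = 0.196). The lame minus Tharparkar difference was 2.39 within slide 1 and 2.03 within slide 2. Its adjusted p was 0.0828 without Tharparkar R1, 0.07 without Tharparkar R2, 0.057 with duplicates averaged and 0.114 with the RNA sample as a random block.

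FECH, ferrochelatase, was close to background. Probe A_73_P052861 was well above background on lame R2_2 alone, where it read -2.97, while its other 7 readings lay between -6.23 and -4.45. Probe A_73_100579 was well above background on 0 arrays. No level of FECH can therefore be set between the groups, and lame R2_2 is the array with the highest background of the 8.

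Of the other genes of haem synthesis, those that passed the test against Tharparkar went both ways. Of 14 listed, 13 had a probe and 12 were tested. In lame against normal crossbred 0 rose and 1 fell, beside the 2.54% and 5.43% of all genes, and the list's median log2 difference was 0.08 against -0.05 over all genes. In normal crossbred against Tharparkar 1 was higher and 2 lower, beside 9.3% and 6.7% of all genes, and in lame against Tharparkar 2 rose and 3 fell, beside 9.68% and 11.6%. ALAS1, the form of the enzyme that other tissues use, was lower by 0.69 in lame (SE 0.19, adjusted p = 0.0399) and by 0.84 in normal crossbred (SE 0.22, adjusted p = 0.0386) than in Tharparkar. It read 5.10 and 5.08 in Tharparkar and between 4.16 and 4.63 on the other 6 arrays. UROD, a decarboxylase midway in the pathway, fell by 0.96 in lame against Tharparkar (SE 0.24, adjusted p = 0.0293), and SLC25A37, the mitochondrial iron importer, fell by 1.05 (SE 0.24, adjusted p = 0.0207). SLC25A38, a mitochondrial glycine carrier, rose by 0.65 in lame against Tharparkar (SE 0.13, adjusted p = 0.0145), and GLRX5, an iron-sulphur cluster protein, rose by 1.05 (SE 0.22, adjusted p = 0.0161). GLRX5 had the order of ALAS2 over the RNA samples, with means of -2.05 in lame R1, -1.78 in lame R2, -2.21 in normal crossbred and -2.96 in Tharparkar. Its difference was -0.04 with normexp background correction. The other SLC25A38 probe gave 0.22, and the other SLC25A37 probes gave -1.16 to -0.20. The other ALAS1 probe gave -0.34 for lame and -0.49 for normal crossbred against Tharparkar. TMEM14C, a mitochondrial protein of porphyrin transport, fell by 1.05 in lame against normal crossbred (SE 0.23, adjusted p = 0.0368), but its other probes ranged from -0.74 to 0.82.

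Between the lame RNA samples, 3 enzymes of the pathway ran opposite to ALAS2. ALAD was 2.2-fold, UROS 2.5-fold and PPOX 2.45-fold lower in lame R2 than in lame R1, whereas ALAS2 was 2.14-fold higher. These genes were singled out after their values were seen, and the values have no test, since each lame RNA sample stands alone. Of the 12 tested haem synthesis genes, 3 were at least 2-fold lower in lame R2, beside 479 of all 8927 genes. The median of lame R2 minus lame R1 was -0.30 for that list and -0.23 over all genes, so most genes read lower in lame R2.

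**Figure D2:**
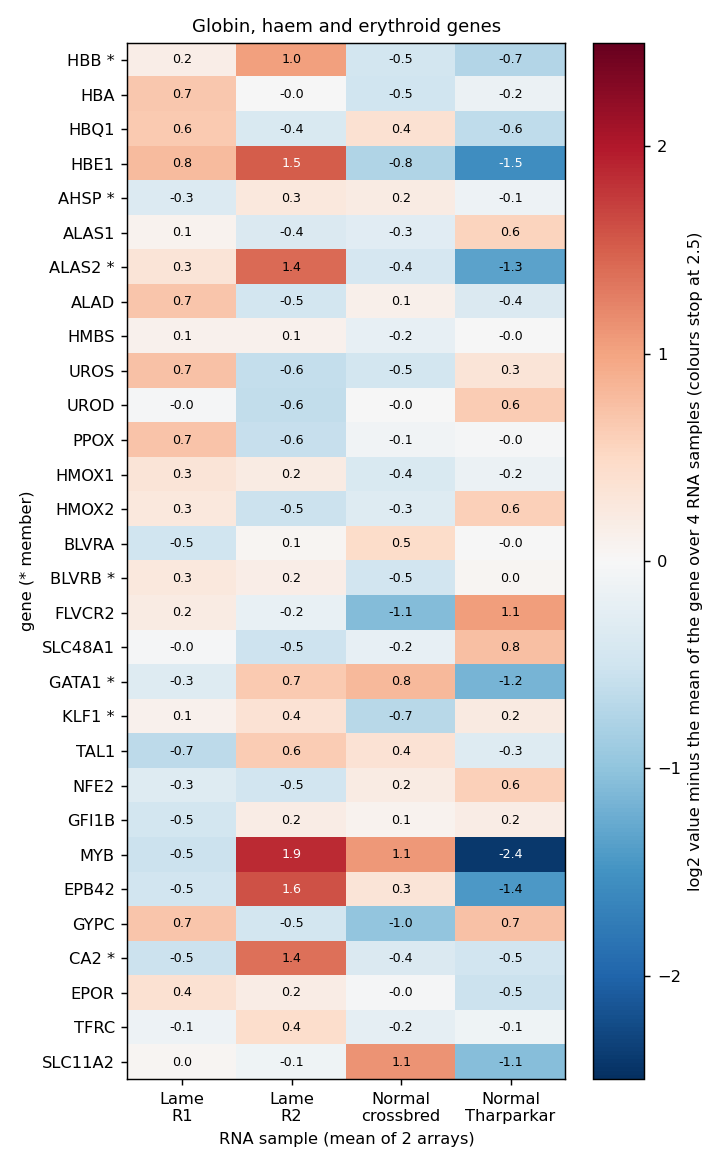
Mean level of each of 30 globin, haem and erythroid genes in each of the 4 RNA samples, as log2 minus the gene's own mean over the RNA samples, with members marked by an asterisk and MYB, HBE1, EPB42 and CA2 not well above background on every array. Red cells mark RNA samples above the gene's mean and blue cells those below: HBB and ALAS2 are red in both lame columns, while most other haem synthesis genes are pale or blue in lame R2. Over all genes tested the median of lame R2 minus lame R1 was -0.23.

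BLVRB, the reductase that acts on biliverdin and flavins and is abundant in red cells, was lowest in the normal crossbred arrays. Probe A_73_P348261 read 2.09 and 1.88 in lame R1, 2.07 and 1.72 in lame R2, 1.30 and 1.20 in normal crossbred and 1.82 and 1.70 in Tharparkar. Probe A_73_113117 read 1.59 and 2.03 in lame R1, 1.34 and 1.46 in lame R2, 1.00 and 1.06 in normal crossbred and 1.58 and 1.83 in Tharparkar. On both probes the normal crossbred arrays lay below the other 6, and lame and Tharparkar arrays overlapped. On the first probe the lame mean of 1.94 ± 0.18 (SD, n = 4 arrays) was 1.61-fold above the normal crossbred mean of 1.25 ± 0.07 (n = 2), a log2 difference of 0.69 with SE 0.16 just inside the threshold (limma, adjusted p = 0.0474). On the second it was 0.58 with SE 0.22 and did not pass (adjusted p = 0.159). Lame minus Tharparkar was 0.18 and -0.10 on the 2 probes (adjusted p = 0.471 and 0.769). The call rested on several arrays, since the adjusted p was 0.301 without normal crossbred R1, 0.346 without normal crossbred R2, 0.109 without either Tharparkar array, 0.0857 without lame R1_1, 0.075 without lame R1_2 and 0.0834 without lame R2_1. It was also lost with the slide as a block (0.0547) and with the RNA sample as a random block (0.906).

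Of the other genes of haem breakdown and export, 7 of 8 were tested. In lame against normal crossbred 2 rose and 0 fell, beside 2.54% and 5.43% of all genes, with a list median of 0.20. HMOX1, which opens the haem ring, rose by 0.63 (SE 0.13, adjusted p = 0.0324), and read 3.67 to 3.80 on the 4 lame arrays against 3.06 and 3.15 in normal crossbred. FLVCR2, a membrane transporter linked to haem, rose by 1.09 (SE 0.18, adjusted p = 0.0166). In normal crossbred against Tharparkar 0 were higher and 2 lower, beside 9.3% and 6.7% of all genes. FLVCR2 was lower by 2.13 (SE 0.21, adjusted p = 0.0013), and SLC48A1, a lysosomal haem transporter, by 0.96 (SE 0.24, adjusted p = 0.0313). Both were also lower in lame than in Tharparkar, FLVCR2 by 1.04 (SE 0.18, adjusted p = 0.00858) and SLC48A1 by 1.03 (SE 0.20, adjusted p = 0.0132). The other FLVCR2 probes ranged from -1.20 to 0.06 in lame against Tharparkar. These genes are active in macrophages and monocytes as well. The summed level of the 14 monocyte genes, relative to each array's 75th percentile, was 55.5 to 57.9 in normal crossbred, 74.0 to 78.1 in Tharparkar, 83.8 to 86.5 in lame R1 and 108 to 116 in lame R2. That sum was mostly its bright genes C1QA, CSF1R, LYZ and MS4A7. In lame against normal crossbred 4 of the 14 rose and 2 fell, beside 2.54% and 5.43% of all genes. C1QA, C1QB, C1QC and CSF1R rose, while CD14 fell by 1.56 and TLR4 by 1.71. The other CD14 probe gave -0.61 and the other TLR4 probes -0.57 to -0.16. The part of monocytes in the BLVRB, HMOX1 and FLVCR2 values was not tested.

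KLF1, the zinc finger factor that activates adult beta globin, had the same low point as BLVRB. It read -1.69 and -1.80 in lame R1 and -1.49 and -1.51 in lame R2. It read -2.38 and -2.73 in normal crossbred and -1.53 and -1.77 in Tharparkar. The normal crossbred arrays lay below the other 6, and lame R1 overlapped Tharparkar. KLF1 and the BLVRB probes were the 3 of 9 tested probes with normal crossbred lowest, an order that 12.4% of all tested probes had. The lame mean of -1.62 ± 0.15 (SD, n = 4 arrays) was 1.9-fold above the normal crossbred mean of -2.55 ± 0.24 (n = 2), a log2 difference of 0.93 with SE 0.18 (limma, adjusted p = 0.0255). Normal crossbred was 1.88-fold below the Tharparkar mean of -1.65 ± 0.17 (n = 2), a difference of -0.91 with SE 0.21 (adjusted p = 0.0241). Lame and Tharparkar differed by 0.02 with SE 0.18 (adjusted p = 0.942). Both calls were lost when any 1 normal array was left out, with adjusted p of 0.144 and 0.0786 without normal crossbred R1, 0.267 and 0.183 without R2, 0.0626 and 0.17 without Tharparkar R1, and 0.0626 and 0.0918 without R2. With normexp background correction the lame minus normal crossbred difference was 0.36 (adjusted p = 0.507), and with the RNA sample as a random block the calls had adjusted p of 0.73 and 0.498. The summed level of the monocyte genes was also lowest in normal crossbred, but single genes of that list went both ways, as given beside BLVRB. The part of monocytes in the KLF1 values was not tested.

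**Figure D3:**
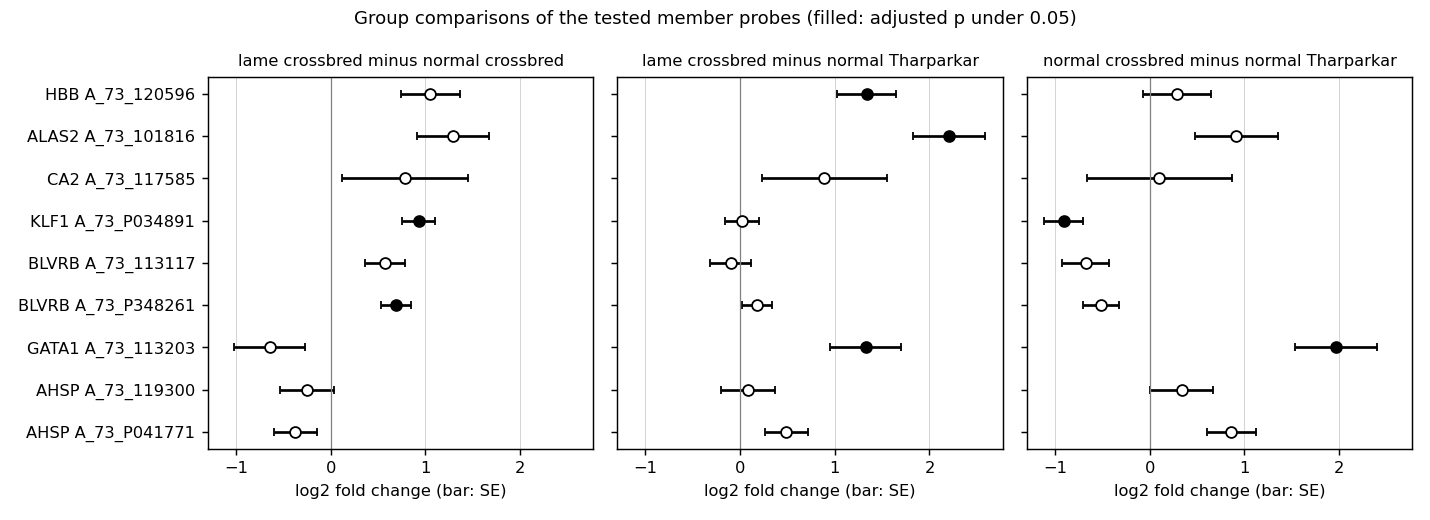
Log2 fold change of each tested member probe in the 3 comparisons between groups, as points with their standard errors as bars; filled points have an adjusted p under 0.05. ALAS2 and HBB are furthest right in the lame comparisons, GATA1 is at 1.97 for normal crossbred minus Tharparkar, and KLF1 and both BLVRB probes lie left of 0 there.

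GATA1, the factor that red cell precursors share with megakaryocytes, mast cells, eosinophils and basophils, was lowest in Tharparkar. It read -2.25 and -2.46 in lame R1, -1.60 and -1.14 in lame R2, -1.11 and -1.33 in normal crossbred and -2.95 and -3.43 in Tharparkar. Both Tharparkar arrays lay below the other 6, and the lame and normal crossbred ranges overlapped. GATA1, HBB and ALAS2 were the 3 of 9 tested probes with Tharparkar lowest, an order that 20.1% of all tested probes had. The normal crossbred mean of -1.22 ± 0.15 (SD, n = 2 arrays) was 3.92-fold above the Tharparkar mean of -3.19 ± 0.34 (n = 2), a log2 difference of 1.97 with SE 0.43 (limma, adjusted p = 0.0219). The lame mean of -1.86 ± 0.60 (n = 4) was 2.51-fold above Tharparkar, a difference of 1.33 with SE 0.38 (adjusted p = 0.0439). Lame and normal crossbred differed by -0.64 with SE 0.38 (adjusted p = 0.343), so that GATA1 and HBB did not have the same order over the RNA samples.

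The GATA1 calls depended on the background correction. Normexp moved the median over all tested probes from -0.03 to -0.21 for normal crossbred minus Tharparkar and from 0.02 to -0.21 for lame minus Tharparkar. With it the GATA1 difference of normal crossbred from Tharparkar was 0.34 (adjusted p = 0.466), and that of lame from Tharparkar was -0.03 (adjusted p = 0.941). The normal crossbred call was lost without normal crossbred R1 (adjusted p = 0.135) or R2 (0.11), without Tharparkar R1 (0.0857) or R2 (0.139), and with the RNA sample as a random block (0.338). The lame call was lost without lame R2_1 (0.0864), without either normal crossbred array (0.0801), without Tharparkar R1 (0.141) or R2 (0.263), with the slide as a block (0.0733) and with the random block (0.425).

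Markers of other cells that carry GATA1 were also read. Of 13 platelet and megakaryocyte genes with a probe, 10 were tested. Against Tharparkar, 4 were higher and 1 lower in normal crossbred, beside 9.3% and 6.7% of all genes, and 5 were higher and 1 lower in lame, beside 9.68% and 11.6%. Their summed level was 31.2 to 32.9 in Tharparkar, 39.8 to 41.2 in normal crossbred, 42.4 to 44.1 in lame R1 and 52.0 to 52.1 in lame R2. The largest part of it was F13A1, which did not pass in any comparison. F2R had means of -1.06 in normal crossbred, -1.73 in lame R2, -1.90 in lame R1 and -3.01 in Tharparkar. PF4, ITGB3, VWF and TUBB1 were higher in both lame RNA samples than in normal crossbred, and lowest in Tharparkar. By mean, these genes and F13A1 had the order of HBB and ALAS2 over the RNA samples. ITGA2B, SELP, RGS18, F2R and THBS1 had other orders. MMRN1 was well above background on 0 arrays. ITGB3, the beta chain of the platelet fibrinogen receptor, was higher than in Tharparkar by 1.53 in normal crossbred (SE 0.21, adjusted p = 0.004) and by 1.98 in lame (SE 0.18, adjusted p = 0.000771). THBS1, a platelet granule protein that monocytes also make, was lower than in Tharparkar, by 1.43 (SE 0.35, adjusted p = 0.0324) and 1.46 (SE 0.31, adjusted p = 0.016). The summed level of the 4 tested basophil, mast cell and eosinophil genes was 5.07 to 5.48 in Tharparkar, 6.70 to 7.48 in lame R1, 11.5 to 11.6 in lame R2 and 18.9 to 19.7 in normal crossbred. That sum was mostly ALOX15, an eosinophil lipoxygenase, whose mean was 4.08 in normal crossbred, 3.05 in lame R2 and 2.34 in lame R1, and lowest in Tharparkar. HDC, the enzyme that makes histamine, had another order, with means of -2.64 in normal crossbred, -3.13 in Tharparkar, -3.53 in lame R1 and -5.24 in lame R2. KIT had means of -0.29 in lame R1, -0.44 in lame R2, -0.78 in normal crossbred and -1.12 in Tharparkar. CCR3 had means of 1.32 in lame R2, 0.67 in normal crossbred, 0.13 in lame R1 and -0.55 in Tharparkar. Against Tharparkar, 1 of the 4 was higher and 0 lower in normal crossbred, beside 9.3% and 6.7% of all genes. The counts were the same in lame, beside 9.68% and 11.6%. CPA3, the mast cell and basophil carboxypeptidase, was well above background on 0 arrays. The part of these cells in the GATA1, HBB and ALAS2 values was not tested.

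The other erythroid transcription factors gave no common direction: 9 of 11 with a probe were tested. In lame against normal crossbred 0 rose and 1 fell, beside 2.54% and 5.43% of all genes. NFE2, the haematopoietic leucine zipper factor that acts at the globin locus and in platelets, fell by 0.62 there (SE 0.13, adjusted p = 0.0386) and by 1.00 in lame against Tharparkar (SE 0.13, adjusted p = 0.00349). MYB, a factor of blood progenitors and also of activated lymphocytes, was not well above background in Tharparkar. It was at least 2.53-fold higher in normal crossbred and at least 1.9-fold higher in lame, measured there on 3 of 4 arrays. It entered the test only through the normal crossbred arrays, where it was high, so its adjusted p of 0.0381 and 0.0317 give no support. With normexp its fitted differences were -0.03 and -0.20. TAL1 and GFI1B, partners of GATA1, did not pass in any comparison. GATA2 was well above background on the 2 lame R2 arrays only.

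SLC4A1, the band 3 anion exchanger of the red cell membrane, was measured in lame R2 and nowhere else. Probe A_73_P032866 read -2.38 and -2.30 on the lame R2 arrays, both well above background. On the other 6 arrays it was not well above background and read between -6.94 and -6.18. Against the lowest signal measurable on those arrays, lame R2 was at least 5.87-fold above lame R1, at least 5.84-fold above normal crossbred and at least 3.91-fold above Tharparkar. The whole lame group, measured on 2 of 4 arrays, was at least 1.35-fold above normal crossbred, and against Tharparkar it lay below the lowest measurable signal, which gives no fold. The other probes, A_73_P066016 and A_73_120204, were well above background on lame R2_2 alone, at -2.31 and -3.12, with lame R2_1 at -4.53 and -5.01. No SLC4A1 probe entered the test, because none was well above background on all 4 lame arrays.

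CA2, the red cell carbonic anhydrase that is also made by other cells, was likewise highest in lame R2. It read -4.34 and -3.86 in lame R1, -2.58 and -1.77 in lame R2, -3.86 and -3.99 in normal crossbred and -4.01 and -4.04 in Tharparkar, and was not well above background on lame R1_1 and Tharparkar R2. Lame R1 overlapped both normal groups, and lame R2 stood above all other arrays. The lame mean of -3.13 ± 1.17 (SD, n = 4 arrays) did not differ from normal crossbred beyond that spread, with a log2 difference of 0.79 and SE 0.66 (limma, adjusted p = 0.514), nor from Tharparkar, with 0.89 and SE 0.66 (adjusted p = 0.374). CA2 passed the filter only through the normal crossbred arrays.

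**Figure D4:**
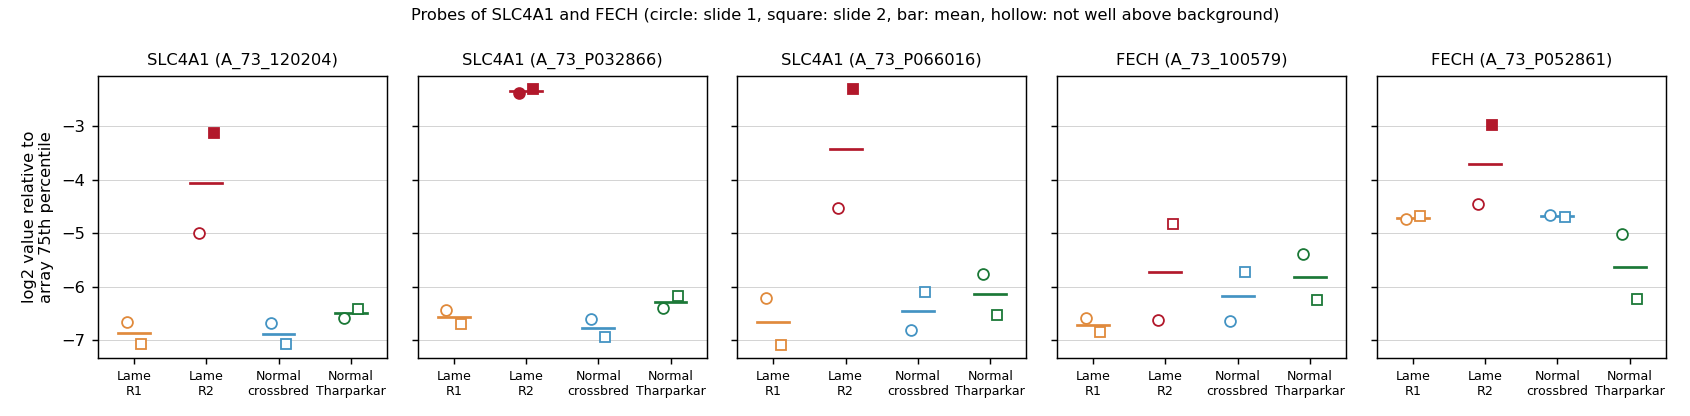
Level of each member probe that was not tested, on the 8 arrays, in log2 units relative to that array's 75th percentile; filled points are well above background and open points are not. SLC4A1 probe A_73_P032866 is filled on both lame R2 arrays at -2.38 and -2.30 and open on the other 6, and the remaining filled points are all on lame R2_2.

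The other membrane, enzyme and iron genes were listed to set the members among red cell genes. Of 17 membrane and skeleton genes with a probe, 7 were tested. In lame against normal crossbred 0 rose or fell by limma (1 had an unadjusted p under 0.05), beside 2.54% and 5.43% of all genes. GYPC, glycophorin C, was lower by 1.71 in normal crossbred than in Tharparkar (SE 0.45, adjusted p = 0.0412), and SLC2A1, the glucose transporter, by 1.16 (SE 0.30, adjusted p = 0.0363). These counts read each gene at its probe of highest mean. In lame against normal crossbred, GYPC was higher by 1.10 at that probe and by 2.01 at its other tested probe. SLC2A1 gave 0.18 and 2.15, and EPB42 gave 0.23 and -0.20. CD47 gave -0.25, and -0.19 to 0.42 at its other probes. Of the 9 tested enzyme and maturation genes, 0 rose or fell in lame against normal crossbred by limma (0 at an unadjusted p under 0.05), beside the same shares. Of the 5 tested iron genes, SLC11A2, an iron transporter, passed in each comparison: it was lower in lame than in normal crossbred by 1.16 (SE 0.14, adjusted p = 0.0049), and higher than in Tharparkar by 1.04 in lame (SE 0.14, adjusted p = 0.00325) and by 2.20 in normal crossbred (SE 0.16, adjusted p = 0.000444). In that order its other tested probes gave -1.07 to -0.01, 0.52 to 2.39 and 0.81 to 3.39. EPOR and TFRC, the erythropoietin and transferrin receptors, did not pass in any comparison.

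Defining red cell genes were mostly too dim to test. HEMGN and RHAG were each well above background on 1 array, and CA1, TMOD1 and TFR2 on 0. Among the 25 listed genes with a probe but none that passed, 15 had a probe well above background on lame R2_2 and 8 on lame R2_1, against 4 on lame R1_2, 1 each on normal crossbred R2 and Tharparkar R2, and 0 on the other 3 arrays. These counts are partly fixed by the filter and cannot be compared between groups. A probe measured on both arrays of a normal group passed it, whereas the lame group needed all 4 arrays. Lame R2_1 had 61.5% of all probes well above background, against 57.6% on lame R1_2 and normal crossbred R2. Over the lists together, 52 genes other than the members were tested. In lame against normal crossbred 2 rose and 3 fell, beside 2.54% and 5.43% of all genes, with a median of 0.08 against -0.05. In normal crossbred against Tharparkar 3 were higher and 6 lower, beside 9.3% and 6.7%. In lame against Tharparkar 6 rose and 8 fell, beside 9.68% and 11.6%, with a median of 0.08 against -0.09 over all genes. These lists gave 28 calls over the 3 comparisons. Leaving out 1 array ended 26 of them in at least 1 case, the exceptions being FLVCR2 (adjusted p at most 0.0227) and SLC11A2 (at most 0.0121) for normal crossbred minus Tharparkar. With the RNA sample as a random block, only that SLC11A2 call was kept (adjusted p = 0.038).

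The lame RNA samples differed from each other more than their duplicates did. Lame R2 was above lame R1 for 7 of the 9 tested probes: by 1.92 for CA2 (3.79-fold, with lame R1 well above background on 1 of 2 arrays), 1.10 for ALAS2 (2.14-fold), 0.98 for GATA1 (1.97-fold), 0.85 for HBB (1.8-fold), 0.61 and 0.06 for the AHSP probes and 0.25 for KLF1. The BLVRB probes were lower, by 0.09 and 0.41. ALAS2 and CA2 were the 2 of 9 that were at least 2-fold higher, as were 13.7% of all tested probes. Over all tested probes the median difference was 0.00 and the median size 0.52, while duplicates of lame R1 and lame R2 differed by medians of 0.15 and 0.20. With each gene at its probe of highest mean, the median difference was -0.23.

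Taking the lame RNA samples singly, lame R1 was above normal crossbred by 0.63 for HBB (1.55-fold) and 0.75 for ALAS2 (1.68-fold), and lame R2 by 1.48 (2.78-fold) and 1.84 (3.59-fold). Against Tharparkar, lame R1 was higher by 0.91 for HBB and 1.66 for ALAS2, and lame R2 by 1.76 and 2.76. Both lame RNA samples therefore stood above both normal ones for these genes, and lame R2 lay further above. For GATA1, lame R1 was 1.13 below normal crossbred and lame R2 0.15 below. For KLF1 the values were 0.80 and 1.05 above. For CA2, lame R1 was 0.17 below normal crossbred and lame R2 1.75 above.

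**Figure D5:**
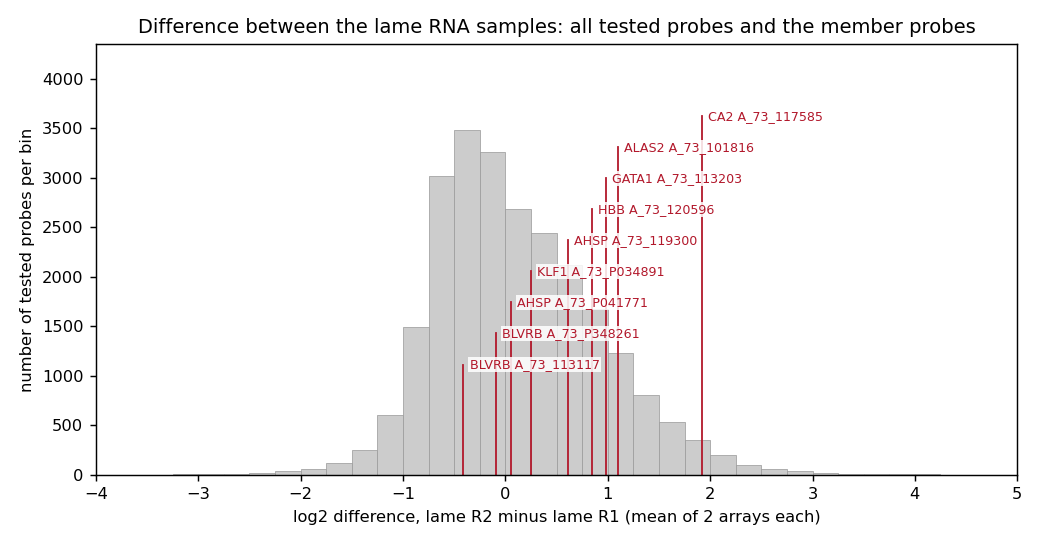
Histogram of the log2 difference between lame R2 and lame R1 (mean of 2 arrays each) over all 24659 tested probes, in grey, with the member probes as red lines. CA2 at 1.92 and ALAS2 at 1.10 lie beyond a 2-fold difference, GATA1 and HBB lie just short of it, and BLVRB lies left of 0.

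For HBB, ALAS2, KLF1, BLVRB and GATA1, the genes whose levels ran most alike over the 8 arrays were taken among genes whose SD over the arrays was at least 0.5 times the member's. For HBB they were DYRK3 (Pearson r = 0.993), DEFB10 (0.99) and CYP2D14 (0.989), and for ALAS2 they were CYP2D14 (0.996), LIMS2 (0.991) and ANO10 (0.987). For KLF1 they were POR and UNC93B1 (each 0.97) and GRK3 (0.968), and for BLVRB they were TNFRSF4 (0.983), ARPC5 (0.973) and ERLIN2 (0.97). For GATA1 they were GNAL and RBM38 (each 0.992) and PHC3 (0.981). The 8 arrays hold 4 RNA samples, so each value describes little more than an order of 4 points. Members were left out of this search. None of the genes named is on the lists of haem and red cell genes, which hold only some of the genes active in red cell precursors.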

How the data were processed

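RNA of blood mononuclear cells was hybridised to 8 single-colour Agilent bovine arrays, 4 lame crossbred, 2 normal crossbred and 2 normal Tharparkar. The intensity values deposited by the authors are the scanner software's processed signals, background-subtracted and detrended within each array per the file headers, with no scaling between arrays. Feature Extraction was version 12.0.3.1 per the file headers and 11.5.1.1 per the submitters' processing notes. A further table deposited by the authors holds log2 values, with scale and centring unstated. Its columns followed the log2 values computed here minus each probe's median over the arrays (correlation above 0.999), with column medians of -0.13 to 0.88, and it served as an alternative.

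Here, spots of a probe were averaged, log2 was taken and each array's 75th percentile over noncontrol probes was subtracted. Of 43653 noncontrol probes, 35 that were marked as outliers were left out, and 0 spots were saturated. Accessions without their version were looked up in RefSeq genes (ARS-UCD2.0 assembly), which named 27054 probes. The arrays' own annotation is on bosTau6, so no coordinates or sequences were used.

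Comparisons used lmFit and eBayes of limma 3.58.1 (R 4.3.3; 2-sided tests), with 1 fit of 3 group means over 24659 probes with 5 residual and 2.33 prior degrees of freedom, after a test on simulated data. P-values were adjusted by Benjamini-Hochberg over all these probes and called under 0.05. A gene of a list stood at its probe of highest mean. A bound ("at least") sets the brighter mean against the lowest signal well above background on each dim array, or the probe's own signal where that is higher. All members were described. Listed genes could be named where called or among the 3 largest differences of a list, others were named for what they mark, and the 3 genes most like HBB, ALAS2, KLF1, BLVRB and GATA1 by Pearson correlation were named. Members and lists were chosen with earlier results of these data known. Alternatives were quantile normalization, normexp background correction (offset 50, on median signals, since the files hold no mean signal), other filters, blocks, array weights and left-out arrays. The number of arrays limits the precision.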

Additional observations from a re-analysis of the deposited data

Results flagged for a closer look

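Both probes of FECH, the last enzyme of haem synthesis, had the array lame R2_2 far from the other 3 lame arrays. Probe A_73_P052861 read -2.97 there against -4.74, -4.68 and -4.45, and the gap to the nearest lame array was 0.835 of the group's whole range. Probe A_73_100579 read -4.83 there against -6.85, -6.62 and -6.59, with a gap of 0.870 of the range. The first was well above background on that array and the second was not. Lame R2_2 had 70.9% of all probes well above background and negative controls at 107, the highest of the 8 arrays. The part of that background in the FECH values was not tested. All 14 member probes were examined in this way, and chance alone marks some groups of 4.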

How the results depend on the processing

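Of the 9 tested member probes (7 genes), those called numbered 2 in lame against normal crossbred, 2 in normal crossbred against Tharparkar and 3 in lame against Tharparkar. In that order the counts were 1, 2 and 2 with quantile normalization, 0, 0 and 2 with normexp, 0, 0 and 1 without the filter on dim probes, 1, 2 and 2 with the slide as a block, and 7, 6 and 4 with array weights, both BLVRB probes being among the 7 and the 6. They were 0, 0 and 0 by limma with duplicates averaged (0, 1 and 1 at an unadjusted p under 0.05; 1 residual degree of freedom) and with the RNA sample as a random block (3, 1 and 2; estimated correlation 0.809). Without both lame R1 arrays they were 5, 5 and 4, and without both lame R2 arrays 7, 6 and 3. Leaving out single arrays gave 0 to 2, 0 to 3 and 0 to 3. The authors' table, 1 probe per gene and the filter on all 8 arrays gave 2, 2 and 3. With the replicate number as a block the counts were 3, 2 and 3, ALAS2 in lame against normal crossbred being added (adjusted p = 0.0418). No other member call was changed by that block. The deviations of equally numbered normal arrays correlated at 0.224, which is 1 value and does not settle a pairing.

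Of the differences that changed sign, GATA1, MYB, GLRX5, F2R (of the platelet list) and HBE1 had passed the test in the fit reported. Under normexp, normal crossbred minus Tharparkar became -0.55 for CA2, -0.36 and -0.40 for the AHSP probes and -0.027 for MYB. Lame minus Tharparkar became 0.080 for BLVRB probe A_73_113117, -0.033 for GATA1, -0.43 for CA2, -0.64 and -0.57 for AHSP, -0.33 for KLF1, -0.036 for GLRX5, -0.087 for F2R, -0.25 for HBE1 and -0.20 for MYB. Under quantile normalization lame minus Tharparkar became -0.49 and -0.34 for AHSP and -0.18 for KLF1. With array weights CA2 became -0.10 in lame minus normal crossbred, and lame minus Tharparkar became 0.056 for that BLVRB probe, -0.17 for AHSP probe A_73_119300 and -0.082 for KLF1. Without both lame R1 arrays that AHSP probe became 0.052 against normal crossbred. Without both lame R2 arrays CA2 became -0.17 against normal crossbred and -0.070 against Tharparkar, and the BLVRB, AHSP and KLF1 values against Tharparkar became 0.10, -0.22 and -0.10. With single arrays left out, lame minus Tharparkar ranged from -0.24 to 0.025 for that BLVRB probe, -0.12 to 0.24 for that AHSP probe and -0.098 to 0.14 for KLF1. Causes were not tested.

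Probes called in lame against normal crossbred numbered 1821, but 686 with normexp, 319 without the filter, 207 with duplicates averaged, 24 with the random block, 1119 with the slide block and 10845 with array weights. Under normexp the split of higher to lower was 164 to 522, against 792 to 1029, and in lame against Tharparkar 940 to 2035, against 2896 to 2432. Signal over background limits SLC4A1, FECH, CA2 and AHSP.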
